A study of Mus musculus with 6 samples.

Results

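The clustered protocadherins are cadherin-type adhesion proteins encoded by 3 neighbouring gene arrays, alpha, beta and gamma, on mouse chromosome 18. The set described here held every protein-coding gene in the count table whose symbol begins with Pcdha, Pcdhb or Pcdhg followed by a member number or by the letters of a gamma subfamily or C-type name. It comprised 57 of the 56941 gene identifiers: 14 alpha, 22 beta and 21 gamma genes. Pcdhgb8, annotated as a pseudogene, was left out. A total of 54 members had enough counts to be tested, among 19354 genes tested in all. The members were set by this symbol rule and not by their measured values, although earlier results of these data were known when it was chosen.

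The series holds poly(A) RNA sequencing of ventral hippocampus from 6 mice: 3 carry the label NEGR1 overexpression and 3 are controls. NEGR1 is a membrane-anchored cell adhesion molecule of the IgLON family. The study asked how it bears on working memory and on anxiety- and depression-like behaviour. The labels name neither the way the overexpression was brought about nor the strain, sex or age of the mice, which are not given in the sources used.

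In the alpha and gamma arrays each member has a large variable exon with its own promoter, which encodes the extracellular cadherin repeats, the membrane span and a short inner tail. This exon is spliced to constant exons that all members of the array share and that encode a common cytoplasmic domain. Beta members are single-exon genes without such a domain. A neuron uses a small set of alternate members, chosen through promoters bound by CTCF and looped to distant enhancers with cohesin, whereas the C-type members at the end of the alpha and gamma arrays are used more widely. The proteins bind their own kind across cell membranes, and this matching lets a neuron tell its own branches from those of other cells.

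The libraries held 33448707, 33785112 and 36174442 counts in overexpression replicates 1 to 3 and 31990842, 38108394 and 30726110 counts in control replicates 1 to 3. Of these, 19233, 19238 and 20267 counts in overexpression libraries fell in clustered protocadherins, against 18462, 23495 and 18227 counts in control libraries. That was 0.0560 to 0.0617% of a library's counts. Negr1 itself was measured at 185, 199 and 195 CPM (reads scaled to a common library size) in overexpression libraries and at 181, 168 and 180 CPM in control libraries. Its fold change of 1.09 did not pass the test (edgeR quasi-likelihood, adjusted p = 0.488). An exact two-sided permutation test gave p = 0.1, the smallest that 3 against 3 libraries allow. Transcripts of hippocampal neurons were present in every library: the summed level of 9 hippocampal markers was 1130 to 1364 CPM in overexpression libraries and 1167 to 1304 CPM in control libraries. Zbtb20 led this sum (mean 475 CPM). Overexpression replicate 1 was the lowest library for Prox1 (68.2 CPM), C1ql2 (23.4 CPM), Dsp (26.9 CPM), Calb1 and Neurod6. It was the highest for Wfs1 (127 CPM) and lay between the other libraries for Fibcd1, Amigo2 and Zbtb20. Overexpression replicate 1 also stood apart by choroid plexus transcripts, with 10 such markers summing to 762 CPM, against 55.5 and 79.3 CPM in the other overexpression libraries and 32.2 to 57.0 CPM in control libraries. Ttr made up 640 of the 762 CPM. All 10 had a fold above 1. Clic6, Otx2, Kcne2, Slc4a5 and Kl were higher in every overexpression library than in every control library. Kcne2 and Slc4a5 held as few as 4 counts in a library. For Ttr, Folr1, Aqp1, Prlr and Sostdc1 the groups overlapped. Markers of oligodendrocytes summed to 3026 to 3575 CPM in overexpression libraries and to 3800 to 4777 CPM in control libraries. The 4 ventral hippocampal markers summed to 239, 231 and 231 CPM in overexpression libraries and to 191, 202 and 208 CPM in control libraries. These sums did not overlap, and all 4 markers had a fold above 1. By itself only Etv1 (mean 151 CPM over the 6 libraries) separated the groups. For Coch, Trhr and Htr2c the groups overlapped, and Htr2c was highest in overexpression replicate 1 (64.1 CPM). The 8 fibroblast and meningeal markers also all had a fold above 1 (median log2 fold change 0.64) and summed to 117 to 149 CPM in overexpression libraries and 82.0 to 131 CPM in control libraries. The astrocyte filament gene Gfap had 338, 328 and 401 CPM in overexpression libraries and 465, 525 and 533 CPM in control libraries (fold change 0.700, adjusted p = 0.0862). Of the 6 astrocyte markers, Gfap among them, 2 had a fold above 1 and 4 below. Together they summed to a mean of 5777 CPM with overexpression and 5780 CPM in control. No marker passed the adjusted threshold. What part these differences in tissue make-up have in the values below was not tested. In tissue RNA, fewer cells of a type and less RNA per cell cannot be told apart.

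What a count of one member can mean depends on the exons that members share. In the GENCODE mouse annotation each alpha member shared 2860 to 2864 exon bases with other members, the constant exons. Each gamma member shared 2116 to 3157 bases, with a median of 2119. Among beta members only Pcdhb21 and Pcdhb22 overlapped, by 455 bases. The exon length that belonged to 1 member alone, with no other gene on either strand, was 404 to 3028 bases in alpha (median 2475), 1107 to 8695 bases in beta (median 3714) and 0 to 4614 bases in gamma (median 2601).

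For most genes the counts behaved as counts of reads that fall on 1 gene only. In the 3 arrays, 6 genes outside the set had all of their exon over members' exons, and each of these 6 had 0 counts in every library. Of them, Gm42416, Gm37013, Gm37388 and Gm38182 lie on the members' strand and Gm37118 and Gm38225 on the other. Across the whole table, 509 of 555 genes whose exon was fully covered by genes of the same strand had a total count of 0 (91.7%). Of 345 genes whose remaining exon lay under genes of the other strand, 334 had a total count of 0 (96.8%), against 17567 of 51048 genes with exon of their own (34.4%). Among protein-coding genes, the class of the members, the shares at 0 were lower: 93 of 131 covered on the same strand (71.0%) and 23 of 29 under the other strand (79.3%), against 3451 of 21589 with exon of their own (16.0%). The rule therefore does not hold for every gene, and the annotation used by the authors may differ. Reads within the constant exons of alpha and gamma therefore appear to be largely missing from these counts, so that a member's value would stand mainly for its variable exon.

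**Figure D1:**
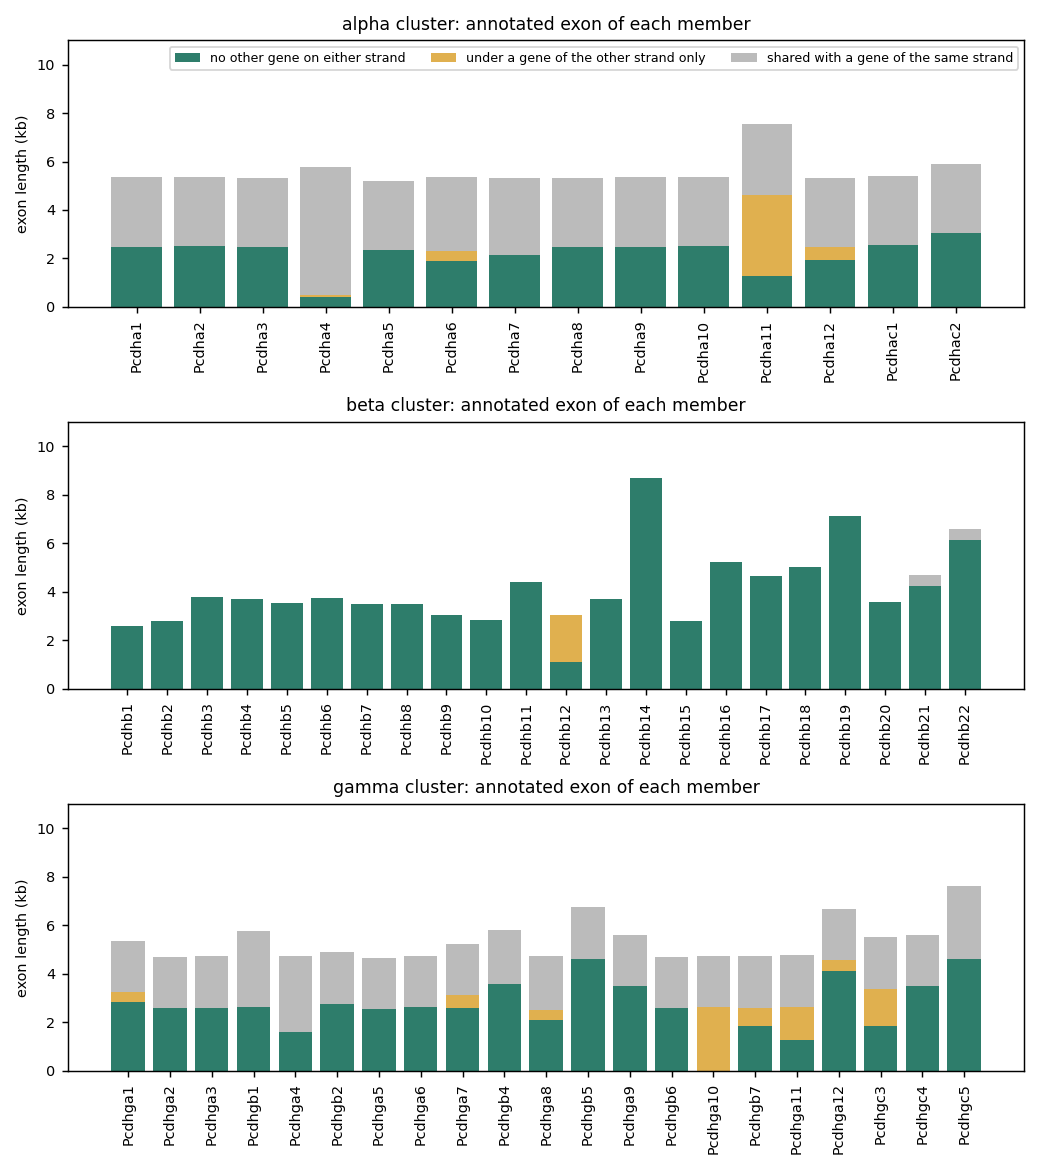
Exon length of each member (kilobases, vertical axis) in the GENCODE annotation, in order along the chromosome, divided into exon with no other gene on either strand (green), exon under a gene of the opposite strand (yellow) and exon shared with a gene of the same strand (grey). Every alpha and gamma member carries a grey stretch, the longest green stretch is the 8695 bases of Pcdhb14, and Pcdhga10 has 0 green bases.

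The annotation also placed 13 members partly under a gene of the opposite strand. Pcdhga10 had 100% of its otherwise unshared exon covered in this way, Pcdha11 72.5%, Pcdhb12 63.5% and Pcdhga11 52.4%. Pcdhga10 held 1 to 8 counts a library and Pcdha11 held 3 to 12. Both failed the filter on low counts, as did Pcdhb1 with 1 to 8 counts, which has 2588 bases of exon to itself. No other gene overlaps Pcdhb1 in this annotation, whereas for Pcdhga10 and Pcdha11 a low level and uncounted reads cannot be told apart. Pcdha4 had only 404 bases of exon to itself and held 6 to 14 counts a library.

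Levels of members were compared per kilobase of exon free of other genes. Pcdhgc5 had a mean of 26.8 CPM per kilobase over the 6 libraries (range 24.7 to 29.2) and Pcdhgc3 one of 19.8 (range 17.7 to 21.8). Their ranges did not overlap. For Pcdhgc3 the scale counts 1821 bases, since 46.1% of its otherwise unshared 3380 bases lie under a gene of the other strand. Pcdhac2, the C-type member linked to the tiling of serotonergic axons, followed with 11.99 CPM per kilobase (range 11.3 to 13.8), beside Pcdhga11 with 10.7 (range 8.90 to 12.3). The ranges of these 2 overlapped, and Pcdhga11 rests on 1256 bases. Per kilobase of all exon unshared on the members' own strand, an alternative chosen after seeing the data, Pcdhgc5 was again highest at 26.8. Pcdhgc3 then had 10.6 and Pcdhga11 5.07, both below Pcdhac2, so the places after Pcdhgc5 depend on whether reads under the opposite gene were counted.

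C-type members were not uniformly high. Pcdhgc4, the gamma isoform required for survival of cortical interneurons, had a mean of 3.94 CPM per kilobase, close to the gamma median of 4.18. Pcdhac1 had 1.27 CPM per kilobase, close to the alpha median of 1.30. Beta members had a median of 1.60 CPM per kilobase, with Pcdhb9 highest at 4.53 and Pcdhb17 next at 3.24. Their ranges over the libraries, 4.04 to 5.47 for Pcdhb9 and 2.75 to 3.63 for Pcdhb17, did not overlap.

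Among alternate members, the highest level was 7.85 times the lowest in gamma, 19.5 times in alpha and 95.4 times in beta. The gamma value leaves out Pcdhga10, which has 0 bases free of other genes, and its highest member, Pcdhga11, rests on 1256 bases. Per kilobase of exon unshared on the members' own strand, Pcdhga11 had 5.07 CPM and Pcdhga10 0.0590, so the gamma spread depends on this choice. The beta value rests on Pcdhb1, at 0.0475 CPM per kilobase. In alpha, Pcdha12 had 3.04 CPM per kilobase, against 0.177 for Pcdha11 and 0.156 for Pcdha8. The array position of an alternate member went with its level only weakly (Spearman's rho 0.15 over 12 alpha, 0.25 over 22 beta and 0.12 over 17 gamma genes, which share the same 6 libraries). These correlations are across genes, which are not independent replicates.

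**Figure D2:**
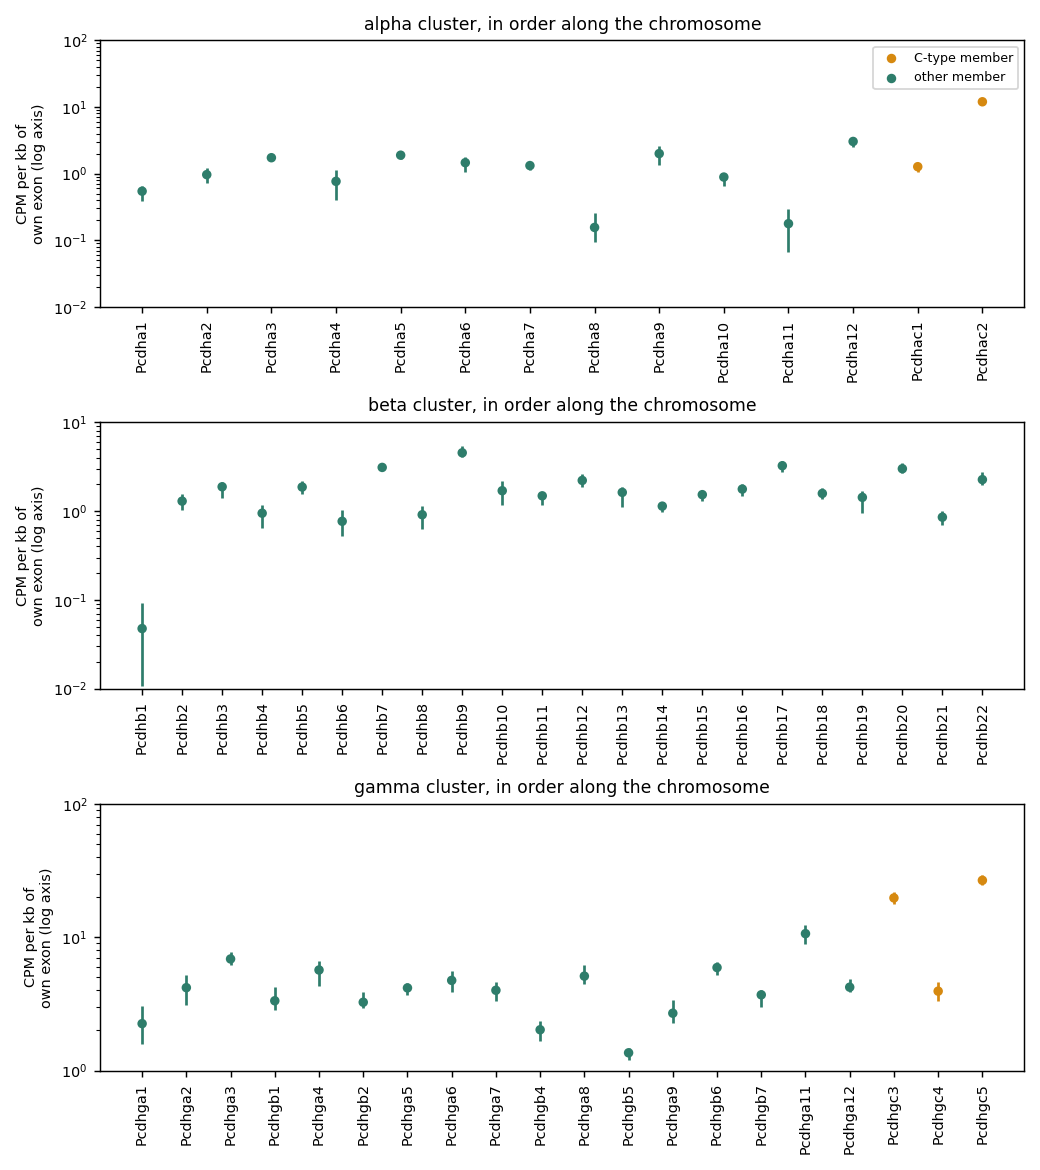
Mean CPM per kilobase of exon free of other genes on either strand, for each member in order along the chromosome (log axis). Points are means over the 6 libraries, with lines from the lowest to the highest library, C-type members in orange and others in green. Pcdhga10 has no exon free of other genes on either strand and is not drawn. On this scale Pcdhgc5 (26.8) and Pcdhgc3 (19.8) lie above every other member, and Pcdhb1 (0.0475) lies lowest.

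By share of counts, which is not a level per length, the arrays differed in how evenly members contributed. Pcdhac2 alone held 50.7% of the alpha counts and Pcdhgc5 34.8% of the gamma counts, while Pcdhb17 held 9.60% of the beta counts. The 3 members with most counts held 65.9% in alpha, 50.02% in gamma and 27.4% in beta.

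No clustered protocadherin passed the test between the groups after adjustment over all genes. Of the 54 tested members 0 had an adjusted p under 0.05, and the same threshold called 0.0465% of all tested genes, 9 in number (0.0258% higher and 0.0207% lower). The smallest adjusted p of a member was 0.302, for Pcdhga1. At an unadjusted p under 0.05 there were 8 members, 2 higher and 6 lower with overexpression. The background at that threshold was 9.24% of all genes, 4.64% higher and 4.6% lower. The overexpression and control libraries did not overlap for 7 tested members, 2 higher and 5 lower, where the background was 15.1% of all genes, 7.07% higher and 8.07% lower. The count of 7 is near its background share of 54 genes; the count of 8 is above its own, a difference that was not tested. DESeq2 gave 1 higher and 4 lower members at an unadjusted p under 0.05.

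For most members the data set a bound on the change. The 95% interval of the fold change excluded 1.5-fold in both directions for 41 of the 54 tested members and did not for 13. The median standard error of a member's log2 fold change was 0.14, against 0.11 over all tested genes.

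**Figure D3:**
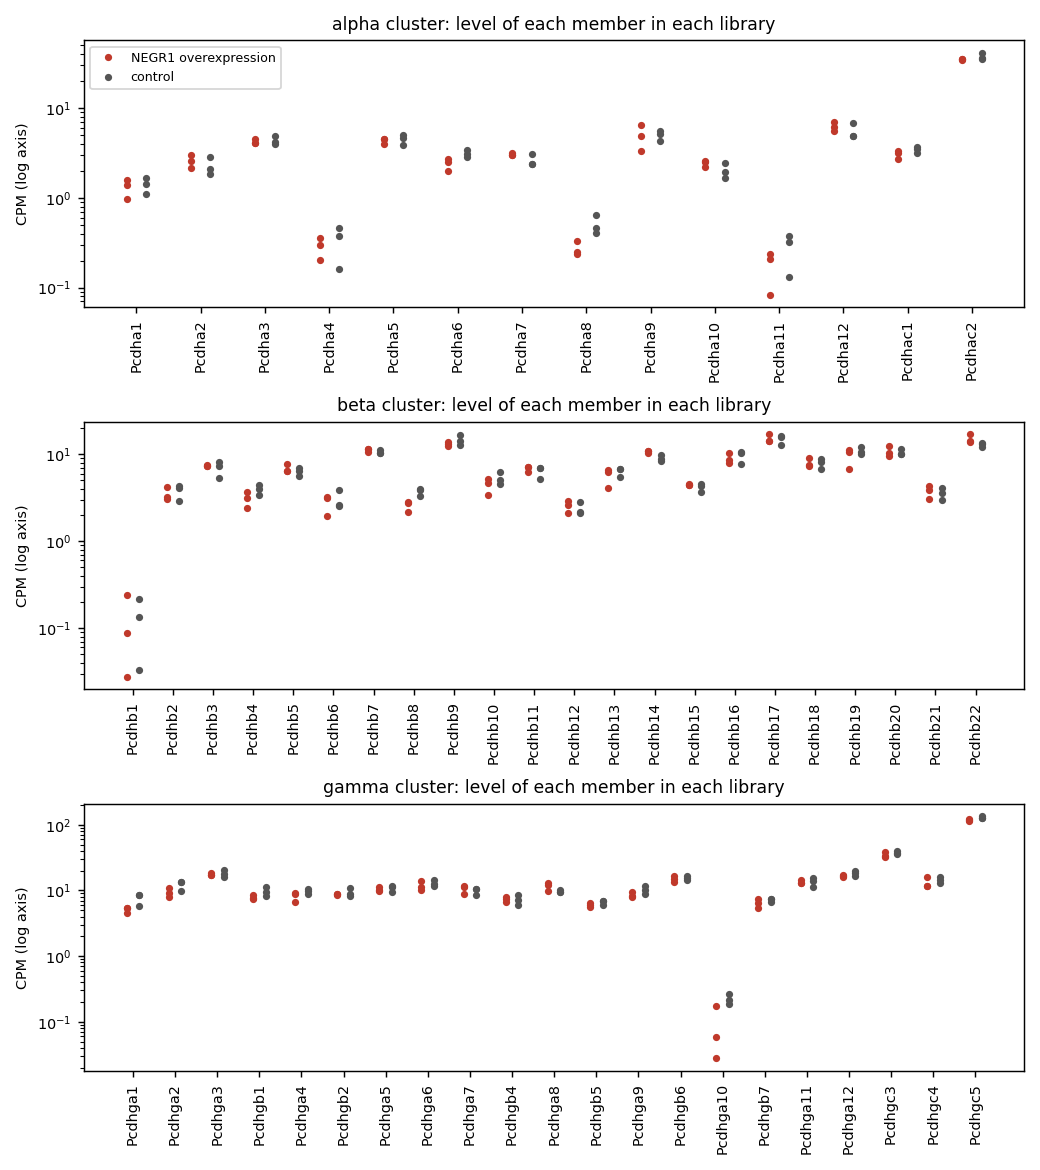
Level of each member in each library (CPM, log axis), overexpression libraries left and red, control libraries right and grey, for the alpha, beta and gamma arrays. For all but a few members the points of both groups intermingle, and the spread of members within an array is far wider than that between the groups.

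Fold changes below 1 were more frequent than above 1. A total of 36 tested members had a fold below 1 and 18 above, where 49.6% of all tested genes were below 1. By array, 9 of 13 alpha members, 10 of 21 beta members and 17 of 20 gamma members were below 1. The median log2 fold change was -0.07 in alpha, 0.02 in beta and -0.13 in gamma, against 0.00 over all tested genes, of which 50.4% were above 1. Fold changes spanned 0.538 to 1.22 in alpha, 0.694 to 1.19 in beta and 0.663 to 1.19 in gamma. Without control replicate 2, 29 members were below 1 and the alpha median was 0.02. Without overexpression replicate 3 the median was -0.11 in alpha and -0.076 in gamma, so the order of the arrays depends on single libraries. These are descriptions of the members tested and carry no test.

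The level of each array was also summed over its members. Alpha summed to 70.8, 67.2 and 72.5 CPM in overexpression libraries and to 68.6, 80.0 and 70.9 CPM in control libraries, a ratio of means of 0.959. Beta summed to 158, 148 and 162 CPM in overexpression libraries and to 153, 158 and 158 CPM in control libraries, a ratio of 0.996. In both arrays the groups overlapped. Without control replicate 2 the log2 ratio of the alpha sum was 0.0078, against -0.061 with it.

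Gamma summed to 345, 347 and 327 CPM in overexpression libraries and to 353, 386 and 368 CPM in control libraries. Every overexpression library was below every control library, and the means were 340 ± 10.7 CPM with overexpression and 369 ± 16.7 CPM in control (SD, n = 3 each), a ratio of 0.920. The 5 C-type members together summed to 207, 204 and 198 CPM in overexpression libraries and to 212, 234 and 220 CPM in control libraries. That was a ratio of 0.913, again without overlap. Of these members only Pcdhgc5 (mean 123 CPM over the 6 libraries) separated the groups by itself. It is also the largest part of the gamma sum. Overexpression replicate 3 had the lowest level for 9 of the 20 tested gamma members and the highest for 0, and control replicate 2 had the highest for 7. The ventral hippocampal and oligodendrocyte marker sums given above separated the groups too. The neuronal marker sum was 8235, 7901 and 8173 CPM in overexpression libraries and 8167, 8739 and 8306 CPM in control libraries, highest in control replicate 2. The part of these markers in the gamma and C-type sums was not tested. Without control replicate 2 the log2 ratio of the gamma sum was -0.09, against -0.12 with all libraries.

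**Figure D4:**
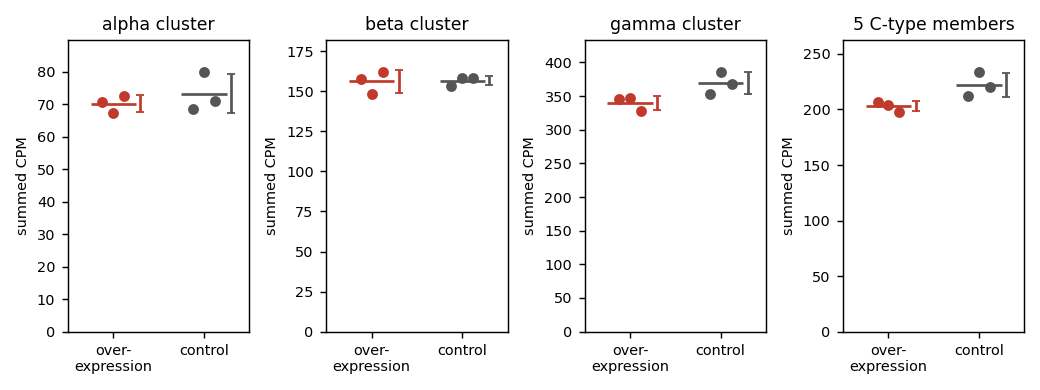
Summed CPM of each array and of the 5 C-type members (vertical axes from 0), overexpression left and control right; points are libraries, horizontal lines means and bars 1 SD. The groups overlap for alpha and beta, whereas for gamma (327 to 347 against 353 to 386 CPM) and the C-type members (198 to 207 against 212 to 234 CPM) they do not. Of the C-type members, only Pcdhgc5 separates the groups by itself.

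The make-up of the arrays was measured as shares of counts, which do not depend on scaling between libraries. C-type members made up 54.9, 55.0 and 52.5% of alpha counts in overexpression libraries and 55.8, 56.7 and 56.4% in control libraries. The Wilson 95% intervals, which cover counting error only, were 52.9 to 56.9%, 52.9 to 57.0% and 50.6 to 54.4% for the overexpression libraries and reached 53.7 to 58.4% over the control libraries. The shares of the groups did not overlap, whereas most of these intervals did. The means were 54.1 ± 1.38% with overexpression and 56.3 ± 0.467% in control (SD, n = 3 each). The difference of the alpha shares, overexpression minus control, was -2.14 percentage points with all libraries and -1.35 without overexpression replicate 3. In gamma the C-type share was 48.6 ± 0.373% with overexpression and 49.1 ± 0.264% in control (SD, n = 3 each), and the groups overlapped. That difference, -0.48 points, was -0.28 to -0.64 with 1 library left out. Alternate gamma members summed to 175 ± 6.56 CPM with overexpression and to 188 ± 9.43 CPM in control (SD, n = 3 each). Here the groups overlapped, with 167 to 180 CPM in overexpression libraries and 179 to 198 CPM in control libraries.

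The 5 C-type members all had a fold below 1. Pcdhgc5, the member with most counts, was measured at 114, 122 and 116 CPM in overexpression libraries and at 126, 135 and 127 CPM in control libraries. Each overexpression library was below each control library. The fold change was 0.908 (95% interval 0.837 to 0.985), with an unadjusted p of 0.0232 and an edgeR adjusted p of 0.466. Pcdhac2 had 35.5, 34.2 and 34.9 CPM in overexpression libraries and 35.1, 41.7 and 36.5 CPM in control libraries. Here the groups overlapped, and control replicate 2 lay above the rest (fold change 0.923, adjusted p = 0.658). Its log2 fold change was -0.11 with all libraries and -0.037 without control replicate 2. Pcdhac1 had a fold change of 0.890 (adjusted p = 0.792), with 2.72 to 3.34 CPM in overexpression libraries and 3.18 to 3.67 CPM in control libraries.

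Pcdhgc3, which is also expressed outside neurons, had 38.03, 33.2 and 32.3 CPM in overexpression libraries and 35.5, 39.7 and 37.1 CPM in control libraries. Pcdhgc4 had 15.9, 11.7 and 11.5 CPM in overexpression libraries and 12.96, 14.3 and 15.8 CPM in control libraries. For both genes overexpression replicate 1, the library with the most choroid plexus transcripts, was the high one of its group, and the groups overlapped. With all libraries the fold changes were 0.921 for Pcdhgc3 (adjusted p = 0.667) and 0.910 for Pcdhgc4 (adjusted p = 0.782). Without overexpression replicate 1 the log2 fold changes were -0.19 for Pcdhgc3 (adjusted p = 0.300) and -0.30 for Pcdhgc4 (adjusted p = 0.290), against -0.12 and -0.14 with all libraries. Without control replicate 1 the values were also farther from 0, at -0.15 for Pcdhgc3 and -0.20 for Pcdhgc4. Without overexpression replicate 3 they were nearer 0, at -0.07 for Pcdhgc3 and -0.05 for Pcdhgc4. For Pcdhgc4 the values without overexpression replicate 2 and without control replicate 3 were both -0.07. The part of the choroid plexus transcripts in this was not tested.

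At the upstream end of the gamma array, Pcdhga1 had the smallest p of any member. It was measured at 5.43, 5.35 and 4.52 CPM in overexpression libraries and at 5.76, 8.62 and 8.66 CPM in control libraries. All overexpression libraries were below all control libraries, although control replicate 1 lay close to the overexpression libraries. The fold change was 0.663 (95% interval 0.521 to 0.844), with an unadjusted p of 0.00264. The edgeR adjusted p was 0.302. Across the alternatives run it was 0.00859 to 0.734, and it passed the threshold only where no filter on low counts was applied. That setting called 304 genes in all.

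The next gene along the array, Pcdhga2, had 9.13, 10.99 and 7.96 CPM in overexpression libraries and 9.97, 13.3 and 13.3 CPM in control libraries. Control replicate 1 was below overexpression replicate 2, so the groups overlapped (fold change 0.767, unadjusted p = 0.0175, adjusted p = 0.444). Of the genes that follow, Pcdhga3 had a fold change of 0.988 and Pcdhgb1 and Pcdhga4, named after their values were seen, of 0.824 and 0.849. Pcdhgb1 had 8.41, 7.51 and 7.77 CPM in overexpression libraries and 9.50, 8.24 and 11.1 CPM in control libraries. Thus the gamma members with lower values were spread over A and B types and lay on both sides of Pcdhga3, whose group means differed by less than 1 SD: 17.8 ± 0.813 CPM with overexpression and 17.99 ± 2.10 CPM in control (SD, n = 3 each).

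Pcdhga8, also named after its values were seen, was the gamma member with the highest fold change, 1.19 (unadjusted p = 0.0474, adjusted p = 0.535). It had 12.3, 12.9 and 9.65 CPM in overexpression libraries and 9.34, 10.3 and 9.54 CPM in control libraries. Overexpression replicate 3 lay within the control values, unlike the other 2. By subfamily, 9 of 11 tested gamma A members and 5 of 6 tested gamma B members had a fold below 1, as did the 3 gamma C-type members. The tested gamma member with the lowest level per kilobase, Pcdhgb5, had a fold change of 0.908 (adjusted p = 0.769).

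Among beta members Pcdhb8 had the smallest p. It was measured at 2.18, 2.84 and 2.77 CPM in overexpression libraries and at 3.86, 4.02 and 3.34 CPM in control libraries. The groups did not overlap (fold change 0.694, 95% interval 0.536 to 0.898, unadjusted p = 0.00897, adjusted p = 0.401). Its immediate neighbours in the array, Pcdhb7 and Pcdhb9, given for their position, had fold changes of 1.05 and 0.900. Pcdhb14 had 10.3, 10.96 and 10.9 CPM in overexpression libraries and 8.41, 8.88 and 9.84 CPM in control libraries. It was higher in all 3 overexpression libraries, with a fold change of 1.19 (unadjusted p = 0.0311, adjusted p = 0.489).

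Pcdhb22, the last beta gene, had 14.0, 13.9 and 16.9 CPM in overexpression libraries and 13.4, 13.2 and 12.1 CPM in control libraries. The groups did not overlap, and the fold change of 1.16 had an unadjusted p of 0.0524 (adjusted p = 0.542). Overexpression replicate 3 was the highest library, and without it the log2 fold change was 0.12, against 0.21 with it. Of the beta members with most counts, Pcdhb17 had a fold change of 1.01 and Pcdhb9 of 0.900 (adjusted p = 0.979 and 0.702). Pcdhb12 had 2.09 to 2.91 CPM in overexpression libraries and 2.13 to 2.82 CPM in control libraries.

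In alpha the member with the smallest p rested on few counts. Pcdha8 had 0.328, 0.234 and 0.250 CPM in overexpression libraries and 0.405, 0.638 and 0.459 CPM in control libraries, which is 8 to 24 counts a library. The groups did not overlap (fold change 0.538, 95% interval 0.296 to 0.980, unadjusted p = 0.0435, adjusted p = 0.521). Pcdha6 had 1.97, 2.51 and 2.72 CPM in overexpression libraries and 2.83, 3.11 and 3.38 CPM in control libraries. These groups did not overlap either, with a fold change of 0.774 (unadjusted p = 0.0653, adjusted p = 0.574). The alternate alpha members with the highest levels had values on both sides of 1. Pcdha12 had a fold change of 1.11 (adjusted p = 0.800) and Pcdha9 one of 0.977 (adjusted p = 0.981), with libraries of Pcdha9 between 3.33 and 6.49 CPM in overexpression and between 4.33 and 5.61 CPM in control. Pcdha10, named after its values were seen, had the highest fold change in alpha, 1.22 (unadjusted p = 0.179), with 2.57, 2.22 and 2.52 CPM in overexpression libraries and 1.93, 1.65 and 2.43 CPM in control libraries. Control replicate 3 lay within the overexpression values. Pcdha4, at 0.160 to 0.459 CPM over all libraries and with only 404 bases of exon to itself, could not be judged from so few counts.

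**Figure D5:**
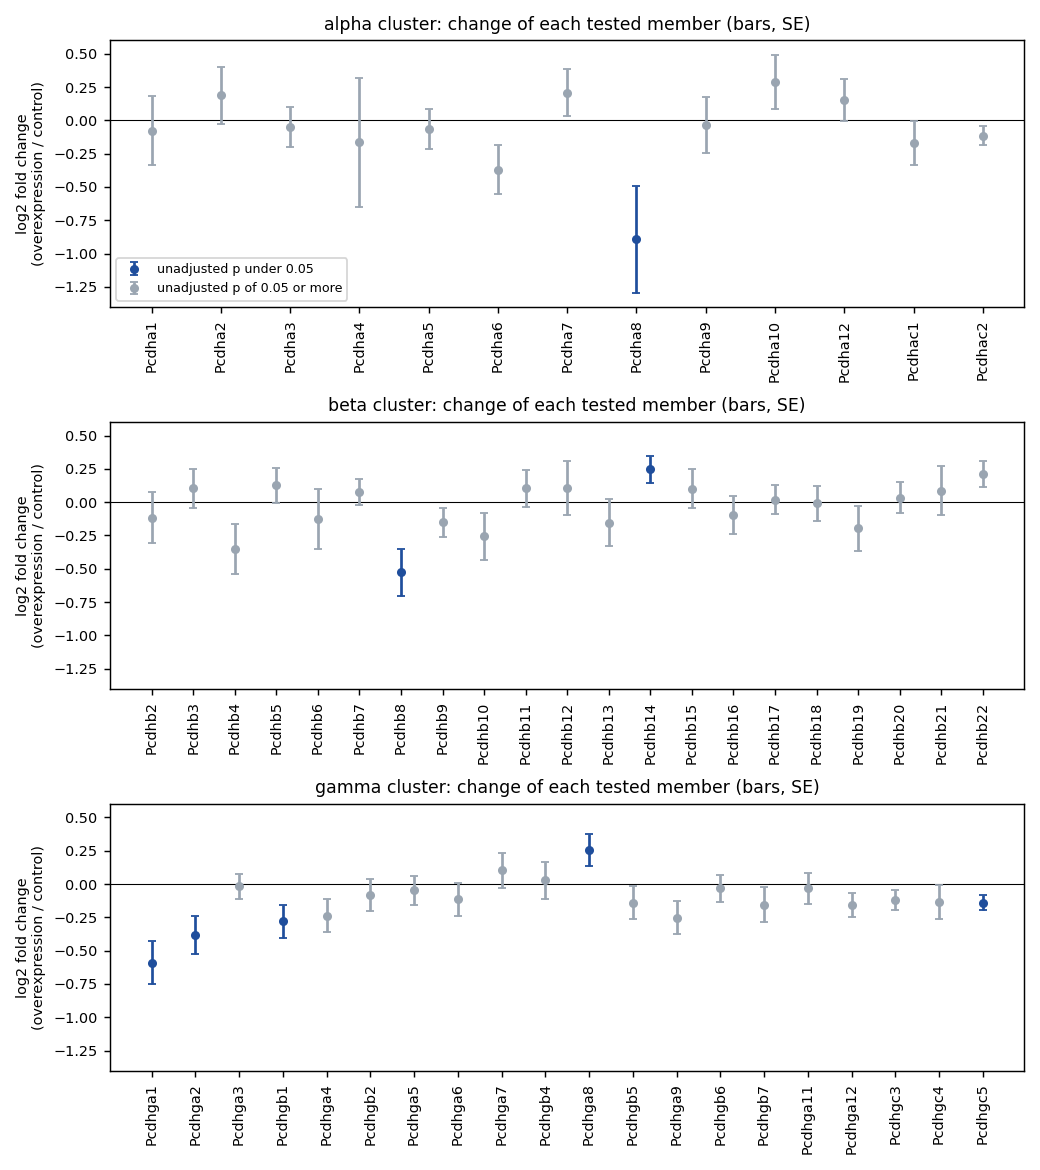
Log2 fold change, overexpression over control, of each tested member in order along the chromosome (points, with bars of 1 standard error); blue marks an unadjusted p under 0.05, and 0 of the 54 passed after adjustment. Pcdha8 (-0.89), Pcdhga1 (-0.59) and Pcdhb8 (-0.53) lie lowest, and most gamma points lie slightly below 0.

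Genes that act with the clustered protocadherins were examined as lists, in the same fit. Of 18 genes that control promoter choice in the arrays, among them cohesin subunits and loaders and DNA methyltransferases, 10 had a fold above 1 and 8 below, and 0 passed the threshold (median log2 fold change 0.01). Ctcf, the factor that marks the chosen promoters, averaged 80.2 ± 5.85 CPM with overexpression and 81.6 ± 3.19 CPM in control (SD, n = 3 each). Rad21, a cohesin subunit, averaged 126 ± 5.52 CPM with overexpression and 124 ± 3.72 CPM in control (SD, n = 3 each). Smchd1, a chromatin protein that represses the arrays, averaged 56.6 ± 5.60 CPM with overexpression and 54.0 ± 1.77 CPM in control (SD, n = 3 each). The edgeR adjusted p-values of these 3 genes were 0.809 to 0.939. The smallest p-values in this list belonged to the cohesin subunit Smc1a, with 91.7 ± 1.83 CPM with overexpression and 100 ± 2.44 CPM in control (adjusted p = 0.482), and to the methyltransferase Dnmt1, with 60.8 ± 2.96 CPM with overexpression and 67.2 ± 4.29 CPM in control (adjusted p = 0.516).

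Of 16 partners and processing enzymes, 6 had a fold above 1 and 10 below, and 0 passed (median log2 fold change -0.06). Marcks, an actin- and membrane-binding protein kinase C substrate that acts downstream of gamma protocadherins in dendrite branching, averaged 129 ± 9.18 CPM with overexpression and 109 ± 1.10 CPM in control (fold change 1.19, adjusted p = 0.220). Across the alternatives run, the adjusted p of Marcks was 0.00937 to 0.612. It passed the threshold only with no filter and without overexpression replicate 1 (adjusted p = 0.0367). Adam10, the protease that sheds protocadherin ectodomains, averaged 112 ± 3.37 CPM with overexpression and 103 ± 1.43 CPM in control (adjusted p = 0.519). Of the 12 non-clustered protocadherins, which lie outside the arrays, 6 were above 1 and 6 below, with 0 past the threshold and a median log2 fold change of 0.00. Pcdh19 averaged 141 ± 12.6 CPM with overexpression and 131 ± 2.57 CPM in control (adjusted p = 0.623), and Pcdh9 140 ± 12.2 CPM with overexpression and 151 ± 11.6 CPM in control (adjusted p = 0.676).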

How the data were processed

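The authors deposited raw whole-number counts for each Ensembl gene in 1 table of 6 libraries, and 0 per-sample columns were left aside. Libraries were poly(A)-selected and strand-specific (dUTP), per the labels' protocols. Trimmomatic 0.36, STAR 2.7.10, featureCounts 2.0.3 and the builds mm10 and GRCm39 appear in the submitters' processing notes, which assign them no steps. The sources used here do not say which build, annotation release or strand setting lies behind the counts, so coordinates are not printed.

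Symbols came from a gene name table (51948 identifiers matched, 4993 did not). Pcdha10 and Pcdha11 shared 1 symbol there and were separated by RefSeq (GRCm38.p6). Exon lengths and overlaps came from GENCODE M21, which may differ from the authors' annotation.

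The test was edgeR 4.0.16's robust quasi-likelihood test (R 4.3.3) on TMM-scaled libraries after the default filter, with group as the sole term, adjusted by Benjamini-Hochberg over 19354 genes at 0.05. It was also run on simulated counts with set fold changes. Those counts held no differences in tissue make-up between libraries, so they cannot show how the test behaves under such differences. CPM are TMM-scaled. Alternatives are other scaling factors, no filter, a stricter filter (1 CPM in 3 libraries), DESeq2 1.42.0, limma-voom 3.58.1, a replicate block, a threshold of 0.1 and each library omitted in turn. Named genes were the C-type members and, in each array, the 3 with the smallest p, the 3 highest and the lowest by mean CPM; others are said to be chosen after their values were seen. Of the other lists the 2 genes with the smallest p, and Ctcf, Rad21 and Smchd1, are given. The members, lists and rules were chosen with earlier results of these data known. The mice are separate per the design text; no libraries agreed within sampling noise (chi-square per degree of freedom 4.28 to 12.9).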

Additional observations from a re-analysis of the deposited data

How the results depend on the processing

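The count of 0 members past the adjusted threshold held under the other scaling factors, the stricter filter, DESeq2, limma-voom, an adjusted p of 0.1 and each left-out library; with no filter it was 1 (Pcdhga1, log2 fold change -0.59, adjusted p = 0.00859). With the replicate number as a block, 0 members and 26 genes in all passed, against 9 without it. Same-numbered libraries, centred within each group, correlated by only 0.0172 to 0.0232 over the tested genes. Differently numbered libraries were not correlated for comparison, so these values cannot decide whether the numbers pair the mice. All genes past the threshold numbered 304 with no filter, 5 with the stricter filter, 107 with DESeq2, 2 with limma-voom and 2 to 63 with 1 library left out. Members at an unadjusted p under 0.05 numbered 1 higher and 4 lower with DESeq2, and with 1 library left out 0 to 2 higher (0 without control replicate 1) and 3 to 7 lower (3 without control replicate 2). Members with a fold below 1 numbered 39 with no filter and 29 to 37 with 1 library left out. The median log2 fold change with 1 library left out was -0.11 to 0.017 in alpha, -0.066 to 0.062 in beta and -0.15 to -0.076 in gamma. Marcks passed only with no filter (adjusted p = 0.00937) and without overexpression replicate 1, and its adjusted p reached 0.612 among the other alternatives. With limma-voom Pcdhb17 had -0.019 and Pcdhga3 0.020. With 1 library left out, the sign turned for Pcdhb17 (-0.087 to 0.084), Pcdhga3 (-0.093 to 0.076), Ctcf (-0.084 to 0.014), Pcdha4 (-0.52 to 0.14), Pcdha9 (-0.29 to 0.18) and Pcdhb12 (-0.0049 to 0.25), none of which passed a test. The causes were not tested. Depth limits Pcdha8 and Pcdhb1, and Pcdha4 is limited also by its 404 bases of exon free of other genes. For Pcdha11 and Pcdhga10 depth and uncounted reads cannot be told apart.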
